A study of Mus musculus with 4 samples.

Results

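The genes described here are 10 components of the desmosome, a cell-cell junction of the epidermis, chosen by name: Dsc1, Dsc2, Dsc3, Dsg2, Dsg3, Dsp, Jup, Pkp1, Pkp2 and Perp. A probe set, the group of short oligonucleotides that reads 1 transcript, was taken where the platform annotation names exactly 1 of these genes. This gave 9 of the 13674 genes named on the arrays, through 19 probe sets, 15 on the first array type and 4 on the second. No probe set was listed for Dsg3, which is not analysed here.

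Desmosomes are the spot-like junctions that rivet epidermal keratinocytes to each other and tie their keratin filaments into a tissue-wide network. Their adhesive part is built from 2 kinds of cadherin, the desmogleins and the desmocollins. These bind across the gap between cells, and their tails recruit plakoglobin (Jup) and the plakophilins (Pkp1 and Pkp2), which hand the load to desmoplakin (Dsp) and so to keratin. Perp is a membrane protein of the same junctions and a target gene of p63, the transcription factor of stratified epithelia. In epidermis the cadherins are layered, with Dsc3, Dsg3 and Dsg2 towards the basal layer and Dsc1 and the desmoglein 1 proteins in the upper living layers. Loss of desmosomal adhesion causes skin fragility and blistering.

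The study set whole skin of newborn FVB/N mice (postnatal day 0) that lack loricrin against wildtype skin of the same strain and age. Loricrin is the main protein of the cornified envelope, the cross-linked shell that replaces the membrane of dying keratinocytes, to which desmosomal remnants stay attached. There were 4 arrays, 2 per genotype, on 2 array types with different probe sets, so that each type held 1 array of each genotype. How the knockout allele was made, whether animals were pooled, and whether the arrays labelled as replicates held RNA of separate animals are not given in the labels.

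Values are MAS5 signals on a linear scale, with the arrays of a type set to an equal trimmed mean. Signals under a floor, 77.6 for first-type and 133 for second-type arrays, were treated as not separable from background and set to the floor. A log2 ratio is knockout over wildtype, so a negative value means less signal in knockout. Where 1 of the signals lay under the floor the ratio is a bound, and where both did there is no ratio. With 1 array per genotype and type there was no test within a type, and genes were counted by a rule of size, at least 2-fold in either direction. The number of arrays limits the precision of every value below.

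Loricrin itself read 2013 in knockout against 41224 in wildtype on its brighter first-type probe set, 20.5-fold lower in the array labelled knockout. Its other probe set there lay under the floor in both arrays, and where either lies relative to the deletion is not known. Xist read 857 in knockout against 24.7 in wildtype on the first type, and the Y-linked Kdm5d read 12.2 and 976 on its brighter second-type probe set. Sex and genotype therefore cannot be told apart in any ratio here. Of 9 keratinocyte markers on the first type, 6 were measured, with a summed signal over all 9 of 51946 in knockout against 68363 in wildtype. Of the 6, 0 were at least 2-fold lower and 1 was higher, Trp63 at 1.06, where 1.15% of all genes were higher. Trp63 did not pass under loess normalization. Krt1, Krt10 and Sfn, each with a mean signal above 10000, made up most of the summed signal and stood at -0.51, -0.47 and -0.27. The 86 first-type genes above 10000 had a median log2 ratio of -0.41, so a lower sum is not particular to keratinocyte markers. Cdh1 stood at -0.39 and Epcam at 0.47. The basal keratins Krt5, Krt14 and Krt15 lay under the floor in both arrays there, although Krt15 read 26582 and 22304 on the second type. All 8 dermal fibroblast markers were measured on the first type. Of these, 6 were at least 2-fold lower in knockout, where 1.91% of all measured genes were. The 8 summed to 4215 in knockout against 8102 in wildtype. Of 4 erythroid markers on that type 3 were measured, all at least 2-fold lower in knockout, beside the same 1.91% of genes. Summed over all 4, the signal was 5520 against 21746. The 4 melanocyte markers there summed to 2402.5 against 1613, and Dct on the second type was at 1.14. Of 4 keratins of simple or glandular epithelium, 3 were measured on the first type, with a median log2 ratio of -0.55 and summed signals of 763 and 841. Endothelial markers (2 of 5 measured) summed to 233 and 358, and macrophage markers (6 of 6) to 4467 and 5041. Of 8 skeletal muscle markers, 6 lay under the floor in both arrays (Acta1, Ckm, Myh3, Myh8, Tnni2 and Tnnt3). Of 6 cardiac or smooth muscle markers, Myh6, Tnni3 and Myh11 lay under it in both, while Nppa read 155 and 177, and Acta2 and Tagln were above it in wildtype only. Myh11 read 403 and 381 on the second type. The part of these differences in the desmosome ratios was not tested. In whole skin, fewer cells of a type and less RNA per cell cannot be told apart.

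None of the desmosome genes passed 2-fold in either direction on either array type. On the first type this was 0 of 8 measured genes, where 3.06% of all 5977 measured genes passed. On the second it was 0 of 4, where 5.1% of 5606 passed. With so few genes, counts of 0 beside shares of that size do not set desmosome genes apart from the rest. The median log2 ratio of the desmosome genes was -0.18 on the first type, against 0.017 for all genes, and -0.21 on the second, against 0.0037. Neither median had a settled sign or size. The first-type median was 0.18 under quantile normalization and 0.13 under loess, -0.37 with suffixed probe sets left out, and -0.37 or -0.43 with the floor at the 20th or 60th percentile. The second-type median was 0.12 with suffixed probe sets left out, and both were positive under the spike-in scaling given later. At an equal trimmed mean the components lay on both sides of 0. Desmocollin 1 was at the low end on both types, joined by Dsc3 on the first and Dsc2 on the second. At the high end stood Dsc2 (a bound) with desmoglein 2 on the first type and plakophilin 2 on the second. Dsc2 was thus found at opposite ends, its first-type value coming from a suffixed probe set. Over ranges of signal, the first-type ratios of all genes had SDs from 0.31 to 0.50. Whether the components were spread more widely than other genes was not tested.

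**Figure D1:**
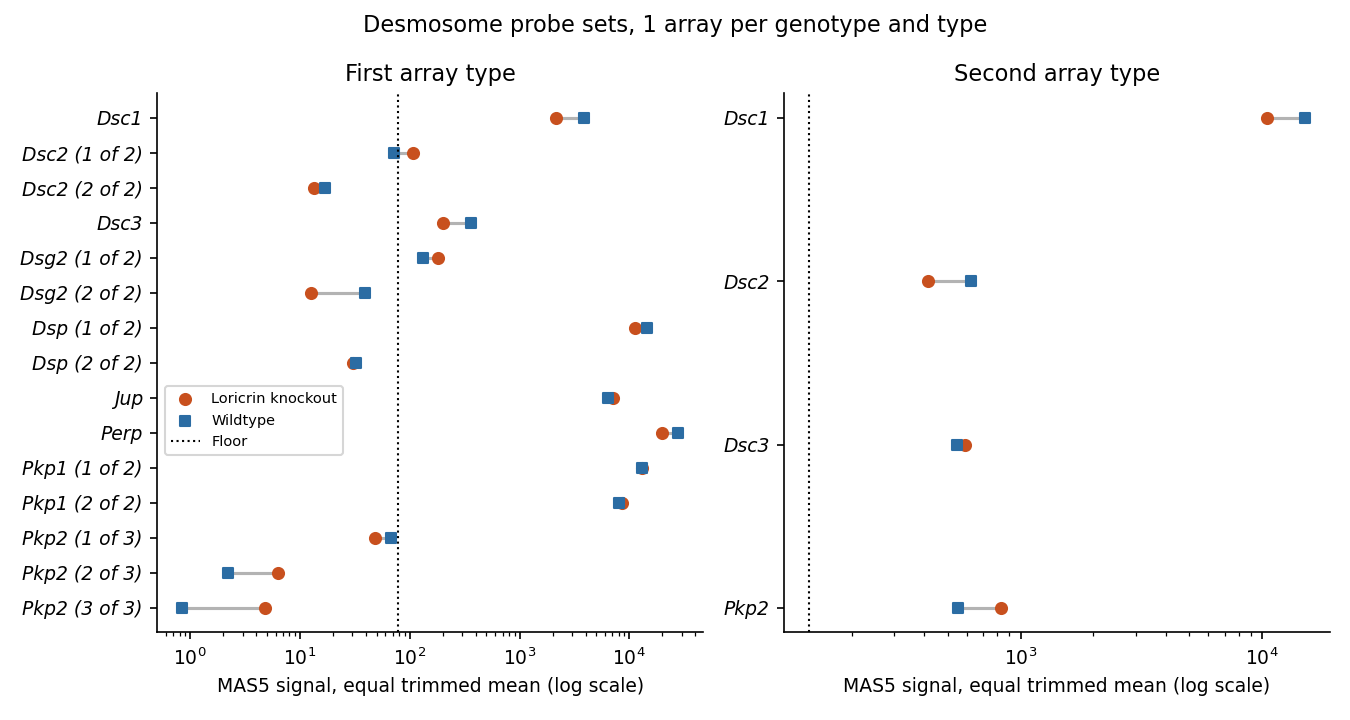
Signal of every desmosome probe set in the loricrin knockout (circles) and wildtype (squares) array of the first type (left) and the second (right), on a log axis, with the floor as a dotted line. At an equal trimmed mean Dsc1 lay to the left in knockout on both types, the Pkp1 circles and squares nearly coincided, and the 6 probe sets left of the floor in both arrays gave no ratio.

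How far repeated ratios of a gene disagree can be read from genes that were measured more than once. Probe sets on the same arrays share their RNA, so their disagreement holds no spread between animals. Ratios from the 2 array types hold such a spread only if the arrays came from separate animals. Across the 1250 genes measured on both array types, the 2 log2 ratios of a gene differed by 0.34 in the median, and their differences correspond to an SD of 0.40 for 1 ratio. Among the 131 of these genes with a mean signal above 1000 on both types, that SD was 0.29. Where a gene had several probe sets on the same arrays, its 2 brightest differed by 0.30 in the median on the first type (838 genes) and 0.32 on the second (1057 genes), which gives SDs of 0.40 and 0.37 for 1 ratio. With both probe sets above a signal of 1000, the SD was 0.56 on the first type (111 genes), although 90.1% of these pairs differed by less than 0.5, and 0.31 on the second (186 genes). A log2 ratio under about 0.30 in size is thus no larger than the disagreement between probe sets of a typical gene.

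Among the adhesive cadherins, desmocollin 1 (Dsc1), the desmocollin of differentiated keratinocytes, had less signal in knockout on both array types, except that scaling on bacterial spike-ins, given later, put its second-type ratio at 0.12. Its first-type probe set read 2142 in knockout against 3851 in wildtype, a log2 ratio of -0.85 or 1.80-fold. On the second type a different probe set read 10468 in knockout against 15081 in wildtype, a log2 ratio of -0.53 or 1.44-fold. With arrays at an equal trimmed mean, knockout was the lower array on both types, by more than the SD of 0.40 for 1 ratio. That SD need not hold a spread between animals. The ratios of the 2 types differed by 0.32, close to the median difference of 0.34. The 72 second-type genes with a mean signal above 10000, Dsc1 among them, had a median log2 ratio of -0.14. The second-type Dsc1 ratio was -0.46 under quantile and under loess normalization. The second-type probe set carries a suffix that marks an incomplete or shared probe design. Of all measured genes, 5.09% lay at least as far from 0 as Dsc1 among first-type genes and 23.2% among second-type genes.

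Desmocollin 3 (Dsc3), the desmocollin of the basal layer, did not repeat between array types. It read 199 in knockout against 359 in wildtype on the first type, a log2 ratio of -0.85, the lowest of the desmosome genes there. Its second-type probe set read 591 in knockout against 545 in wildtype, a log2 ratio of 0.12. The direction turned between the types, and the gap of 0.96 was one that 8.80% of the genes on both types reached.

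Desmocollin 2 (Dsc2), which is broadly expressed in epithelia, also disagreed between its probe sets. The brighter first-type probe set read 108 in knockout against 71.7 in wildtype. The wildtype signal lay under the floor of 77.6, so the ratio is at least 1.39-fold higher in knockout. A further first-type probe set read 13.5 and 17.04, both under the floor. The second-type probe set of Dsc2 read 413 in knockout against 622 in wildtype, a log2 ratio of -0.59 or 1.508-fold lower. The second-type signals were well clear of the floor of 133, while the first-type ones straddled theirs. The brighter first-type probe set also carries a suffix that marks an incomplete or shared probe design.

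Desmoglein 2 (Dsg2), the desmoglein of simple epithelia and the lower epidermal layers, was the 1 desmoglein among the components with a probe set. It read 182 in knockout against 132 in wildtype, a log2 ratio of 0.47 or 1.38-fold higher, on signals not far above the floor. Its other first-type probe set read 12.6 and 38.9, under the floor in both arrays.

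The 9 desmocollin and desmoglein genes of the mouse lie next to each other in 1 cluster, in the order Dsc3, Dsc2, Dsc1, Dsg1c, Dsg1a, Dsg1b, Dsg4, Dsg3 and Dsg2 among protein-coding genes of the GRCm38.p6 RefSeq table. Neighbours in this order did not always share a ratio. On the first type Dsc3 and Dsc1 both stood at -0.85 while Dsc2 between them, on a suffixed probe set, was at 0.47 or higher. Dsg2 at the far end was at 0.47. On the second type Dsc2 and Dsc1 were at -0.59 and -0.53, Dsg1a was at -0.59 and Dsc3 at 0.12. Dsg1a, one of the mouse genes for desmoglein 1, read 1802 in knockout against 2708 in wildtype on its brighter probe set. Its other probe set read 490 and 1187, a log2 ratio of -1.28. Both Dsg1a probe sets carry suffixes for shared or incomplete designs, and the near-identical Dsg1b and Dsg1c could contribute to their signal.

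At an equal trimmed mean, the 2 components with first-type ratios nearest to 0 were the plaque proteins plakoglobin and plakophilin 1. Jup, the armadillo protein that binds the cadherin tails and is shared with adherens junctions, read 7095 in knockout against 6350.27 in wildtype, a log2 ratio of 0.16. Pkp1, the plakophilin of the upper epidermis, was measured by 2 probe sets. The brighter, with a suffix for an incomplete or shared design, read 13111 in knockout against 13005 in wildtype, a log2 ratio of 0.012. The other, without a suffix, read 8599 and 8059.55, a ratio of 0.094. At that scaling both Pkp1 ratios were nearer to 0 than that of any other component. Under quantile and loess normalization, given below, desmoplakin and Perp were nearest to 0 instead.

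Desmoplakin (Dsp), the plakin that anchors keratin filaments to the plaque, read 11157 in knockout against 14388 in wildtype, a log2 ratio of -0.37 or 1.29-fold lower. A weaker Dsp probe set read 30.4 and 32.4, both under the floor. Perp read 19883 in knockout against 27837 in wildtype, a log2 ratio of -0.49 or 1.40-fold lower. Both genes were less bright in knockout, but so were most genes of their brightness. The 86 genes with a mean signal above 10000 on the first type, among which are Dsp, Perp and Pkp1, had a median log2 ratio of -0.41. When the arrays were scaled by brightness the Dsp ratio was -0.04 (quantile) or -0.07 (loess), and the Perp ratio 0.05 or -0.06. The same scalings moved Jup to 0.32 and 0.33 and the brighter Pkp1 probe set to 0.32 under each. A common scaling factor cancels in the difference between 2 genes of the same arrays. Jup minus Dsp was 0.53 and Pkp1 minus Perp was 0.50, so the ratios of plakoglobin and plakophilin 1 stood above those of desmoplakin and Perp. Scaling by brightness narrowed these differences, to 0.35 under quantile and 0.40 under loess for Jup minus Dsp and to 0.27 and 0.38 for Pkp1 minus Perp. They have no replicate. For scale, the ratios of 1 gene on the 2 array types differed with an SD of 0.57. Among genes with a mean signal above 1000 on both types that SD was 0.41.

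Plakophilin 2 (Pkp2), the plakophilin of simple epithelia, heart and the lower epidermis, had more signal in knockout on the 1 array type that measured it. It read 829 in knockout against 552 in wildtype on the second type, a log2 ratio of 0.59 or 1.502-fold higher. All 3 first-type probe sets lay under the floor in both arrays, the brightest at 48.3 and 67.2, so this ratio was not repeated. Within the second type Dsc1 minus Pkp2 was -1.11, the widest contrast there after Dsc2 minus Pkp2 at -1.18.

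**Figure D2:**
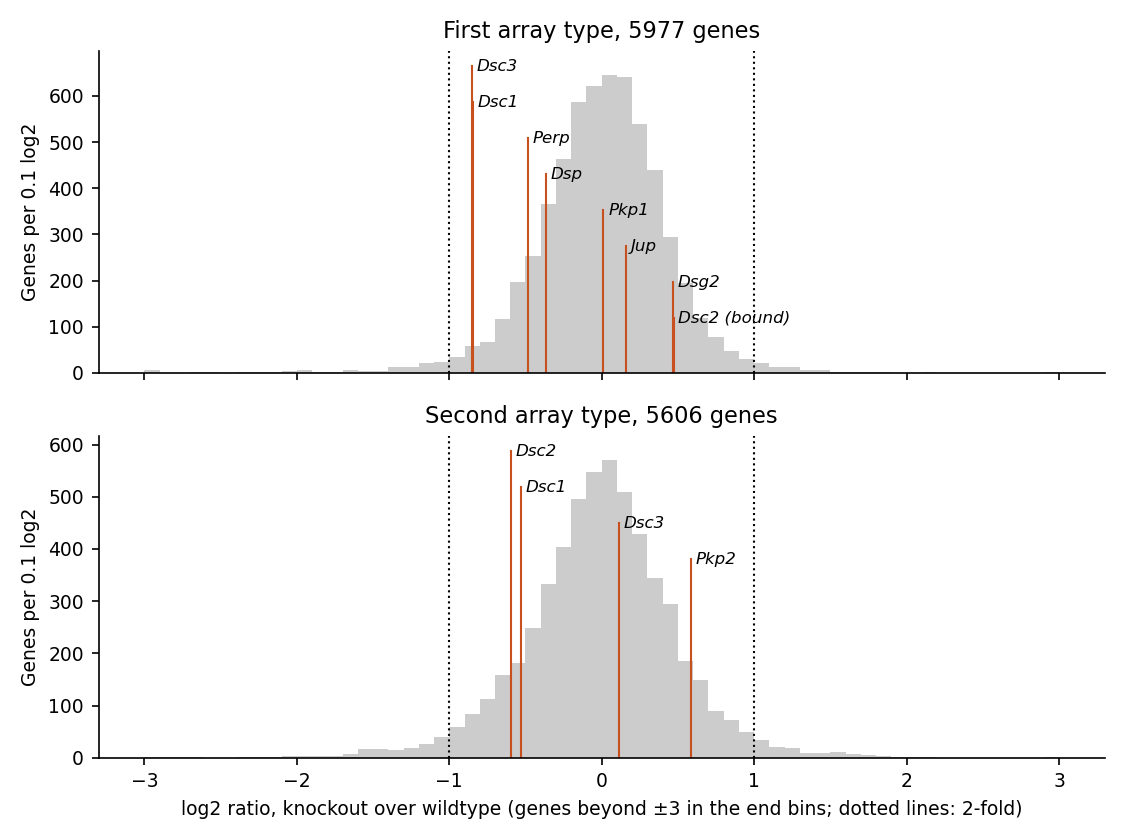
Histograms of the log2 ratio of knockout over wildtype for all measured genes of the first (top, 5977 genes) and second (bottom, 5606 genes) array type, with a line at the value of each desmosome gene and dotted lines at 2-fold. All desmosome lines stand between the dotted lines, from Dsc3 and Dsc1 at -0.85 to Dsc2 (a bound) and Dsg2 at 0.47 on the first type.

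With a smaller rule of size, 1.5-fold, 2 of 8 desmosome genes were lower on the first type, Dsc1 and Dsc3, and none was higher. Over all measured genes, 7.06% were that much lower and 6.12% higher. On the second type Dsc2 was lower and Pkp2 higher, 1 of 4 each, where 10.7% of genes were lower and 9.1% higher. Pkp2 stood at 1.502-fold and Dsc2 at 1.508-fold, close to that limit. Which genes passed was not repeated, since Dsc1 passed on the first type only, at 1.80-fold against 1.44-fold on the second.

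Dsc1, Dsc2 and Dsc3 were the desmosome genes measured on both array types, which allowed a limma fit of 1250 genes to the 4 arrays together, blocked by array type. For Dsc1 the mean log2 ratio was -0.69 (SE 0.23, adjusted p = 0.586 from limma), with less signal in knockout on each of the types. Over the other scalings and floors the adjusted limma p of Dsc1 lay between 0.0966 and 0.949. The mean was -0.37 for Dsc3 (SE 0.28, adjusted p = 0.732 from limma). It was -0.060 for Dsc2 (SE 0.29, adjusted p = 0.967 from limma). None of the 1250 genes passed an adjusted limma p of 0.05, and 8.24% (103 genes, Dsc1 among them) had an unadjusted p under 0.05. Each gene brought 1 residual degree of freedom, so these p-values rest mainly on the disagreement between array types pooled over genes, and measure no spread between animals unless the arrays came from separate ones.

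**Figure D3:**
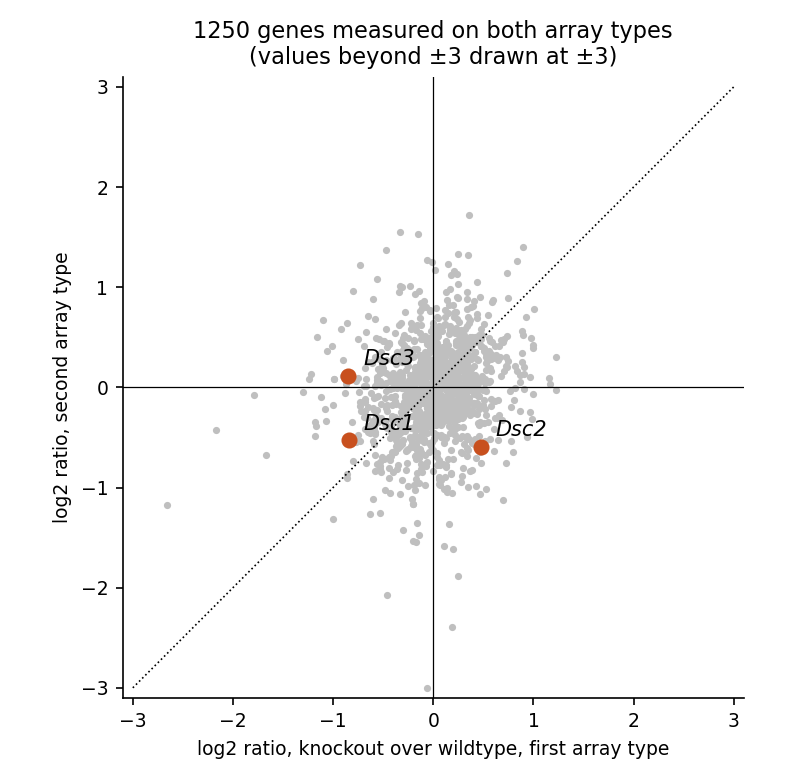
The log2 ratio of knockout over wildtype on the second array type against that on the first, 1 point for each of 1250 genes measured on both, with Dsc1, Dsc2 and Dsc3 enlarged and the dotted line marking equal values. With arrays at an equal trimmed mean Dsc1 lies below 0 on both axes, while Dsc2 and Dsc3 lie in quadrants where the types have opposite signs.

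All ratios above are relative to the typical gene. The 9 bacterial spike-in probe sets averaged a log2 ratio of -0.69 on first-type arrays and -0.65 on second-type arrays, and scaling on them moved the median of all genes to 0.67 and 0.62. Under that scaling Dsc1 stood at -0.16 and 0.12, Dsc3 at -0.16 and 0.77, and every other measured desmosome gene was positive on both types. Dsg2 then passed 2-fold on the first type, at 1.15, and Pkp2 on the second, at 1.24. They were among 1111 first-type and 996 second-type genes at least 2-fold higher under that scaling, so passing does not set them apart. The order of the genes on an array type is not altered by such a factor while both signals stay above the floor, so Dsc1 and Dsc3 remained the lowest on the first type and Pkp2 the highest on the second.

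**Figure D4:**
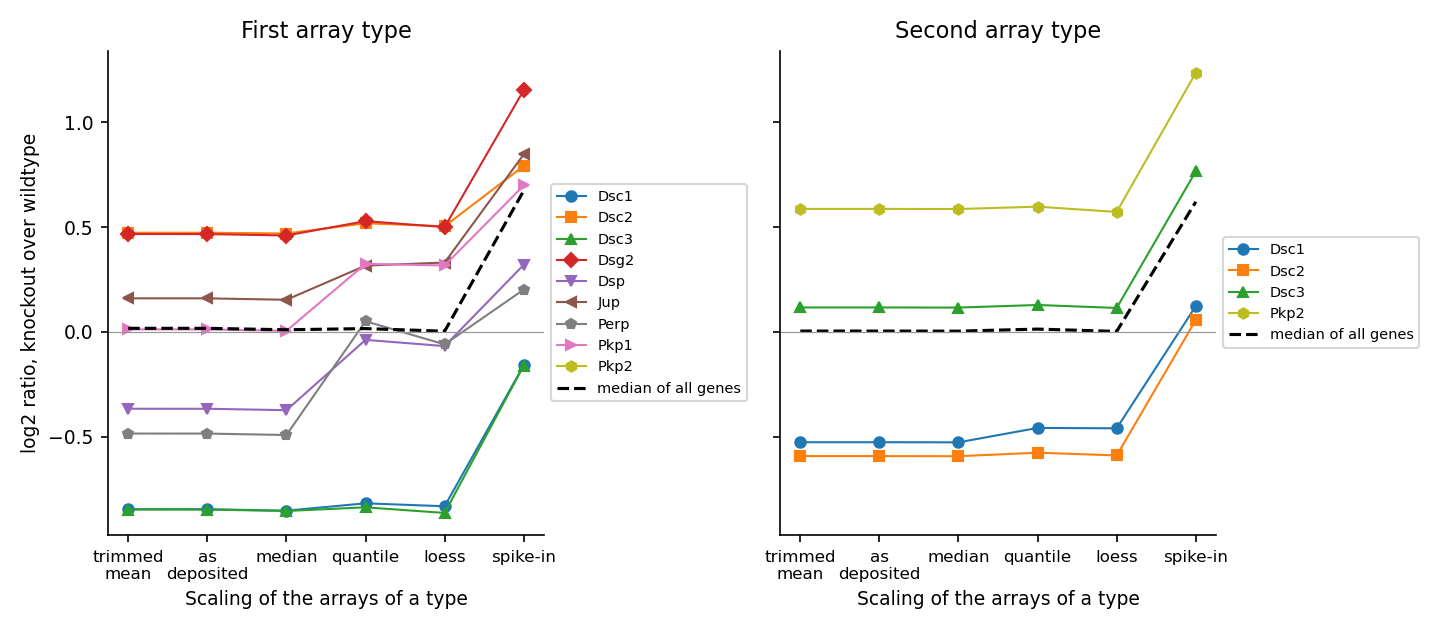
The log2 ratio of each desmosome gene under 6 ways of scaling the arrays, first type left and second type right, with the median of all genes as a dashed line. Dsp and Perp moved from below 0 to about 0 under quantile and loess scaling, Dsc1 stayed near -0.85 on the first type except under spike-in scaling, and spike-in scaling raised all of them by a like amount except first-type Dsc2, whose wildtype signal lay at the floor.

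At an equal trimmed mean, other genes of the junction also stayed inside 2-fold on their brightest probe sets. Of 9 further desmosome and corneodesmosome genes, 4 were measured on each type and none passed 2-fold, with medians of -0.086 and -0.14. Over all measured genes 3.06% and 5.1% passed, so counts of 0 among so few genes do not set them apart. Under spike-in scaling 1 of these genes was at least 2-fold higher on the first type, among 1111 of all genes. Corneodesmosin (Cdsn), the protein that seals desmosomes of the cornified layer, read 13437 in knockout against 13351 in wildtype. Periplakin (Ppl), a plakin of the plaque and envelope, had a first-type ratio of -0.25, and envoplakin (Evpl), its partner, a second-type ratio of 0.29. Plakophilin 3 (Pkp3), found in nearly all epidermal layers, repeated closely, with -0.18 on the first type against -0.15 on the second. Plakophilin 4 (Pkp4) did not, with 0.64 and -0.13.

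The keratins that desmosomes anchor were mixed. Of 11 listed, 8 were measured on the first type and 1 passed 2-fold, the stress keratin Krt16, at -1.17, where 1.91% of all genes were that much lower, and none passed lower under spike-in scaling. Of 4 measured by the second type none passed, where 5.1% of all genes did. Krt16 was at 0.51 there, and the brightest, Krt15 and Krt77, were at 0.25 and 0.19. The brightest first-type keratins, Krt1 and Krt10 of the suprabasal layers, stood at -0.51 and -0.47, beside Perp at -0.49 and Dsp at -0.37 in the same range of brightness.

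Among genes of adherens junctions, the actin-linked junctions that form beside desmosomes, 0 of 7 first-type and 0 of 2 second-type genes passed 2-fold. Over all measured genes 3.06% and 5.1% passed. The list medians were 0.18 and 0.079. The first-type median was -0.044 when a gene took the median over its probe sets, so its sign was not settled. Beta-catenin (Ctnnb1), the close relative of plakoglobin, read 5361 in knockout against 5756 in wildtype, and p120 catenin (Ctnnd1) 3979 and 3508. The second-type genes Nectin1 and Afdn stood at 0.17 and -0.015.

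Of genes that regulate or cut desmosomal proteins, 1 of 6 passed on the first type, where 1.15% of all genes were at least 2-fold higher, and 0 of 6 under loess normalization. Trp63, which encodes p63, read 1906 in knockout against 913 in wildtype, a log2 ratio of 1.06. Perp, a known p63 target, stood at -0.49 on the same arrays, but at 0.05 under quantile and -0.06 under loess normalization. A link between the 2 genes was not tested. None of the 5 measured by the second type passed, where 5.1% of all genes did. The kallikrein proteases Klk7 and Klk5, which cut corneodesmosomes during shedding, stood at -0.42 and 0.15.

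Hemidesmosome genes, which fasten basal cells to the basement membrane and use the same keratins, were counted in the same way. Of 7 measured on the first type, 3 were at least 2-fold higher, where 1.15% of all genes were, and the list median was 0.77. They were Itga6 at 1.62, Col17a1 at 1.42 and Lamb3 at 1.20. The 1 measured on the second type, Dst, stood at 0.67. The difference between the lists was not tested.

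**Figure D5:**
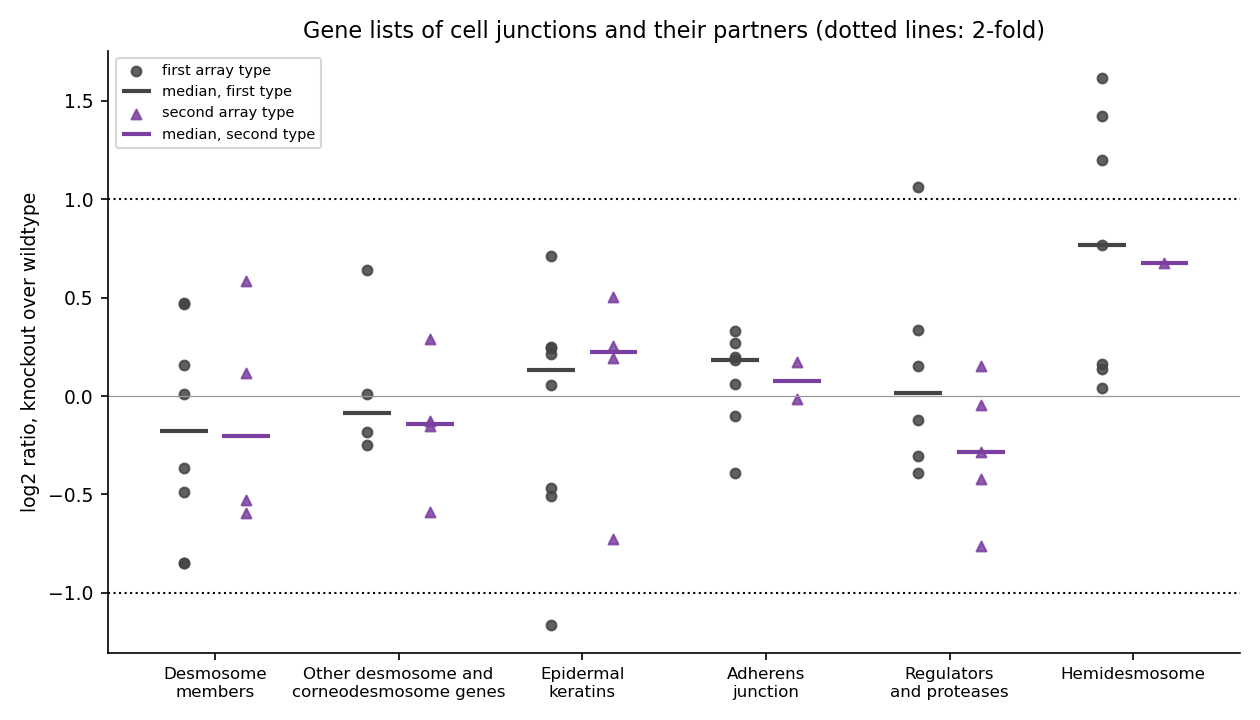
The log2 ratio of each measured gene of 6 lists, 1 point per gene and array type (circles first, triangles second), with bars at the list medians and dotted lines at 2-fold. Desmosome medians lie at -0.18 and -0.21 with all points inside 2-fold, while 3 hemidesmosome genes and Trp63 lie above 2-fold and Krt16 below it on the first type.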

How the data were processed

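The authors' deposited values are linear array intensity values, 1 per probe set, that the submitters' processing notes credit to MAS5. Its version, scaling target and detection calls were not given in the sources used here. The 2% trimmed mean of each array was between 500.2 and 500.4 as deposited. From these values each pair of arrays was set to an equal 2% trimmed mean, with a floor at the mean of their 40th percentiles. The 66 control probe sets per type were then left out, and a gene took its brightest probe set that names 1 gene. Current symbols came by gene identifier from the GRCm38.p6 RefSeq table (10817 of 10833 and 10550 of 10581 probe sets). Genes measured on both types were fitted with limma 3.58.1 (lmFit, eBayes, Benjamini-Hochberg over 1250 genes) in R 4.3.3, and other steps used Python 3.11.15. The steps were tested on simulated data, with planted changes larger than any component ratio here and no trend with brightness. That test does not bear on changes as small as those of the components. Alternatives covered scaling, floor, rule of size, probe set choice and the block. Apart from loricrin and the sex-linked genes, which checked the labels, genes named were all components with every probe set and, of the other lists, those past 2-fold or else the 2 brightest. Dsg1a, Pkp4, Krt1, Krt10, first-type Pkp3, second-type Krt16 and single markers were named after their values were seen. The components and lists were chosen with earlier results of these data known.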

Additional observations from a re-analysis of the deposited data

How the results depend on the processing

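Each group and array type held 1 array, so leaving out an array removes that type's ratio. For the genes on both types this left, with no residual degrees of freedom and no test, Dsc1 between -0.85 and -0.53, Dsc2 between -0.59 and 0.47 and Dsc3 between -0.85 and 0.12. The first-type median of the components lay between -0.43 and 0.18 and the second-type median between -0.21 and 0.12 over all settings but spike-in scaling, the last without suffixed probe sets. Of the component counts, medians and the number of genes past limma's threshold, 63 values under other settings kept within the limits set for a change and 10 did not. A count kept within them if it was equal or within 1.5-fold, and a median if it moved by less than 0.40, whatever its sign. The first-type median thus counted as kept at 0.18 under quantile normalization, with its sign turned. Values as deposited already had nearly equal trimmed means, so that setting could hardly differ. Under spike-in scaling 1 component was at least 2-fold higher on each type, among 1111 and 996 of all genes. The component medians became 0.51 and 0.44, 552 genes passed limma, and the limma means of Dsc2 and Dsc3 turned to 0.42 and 0.30. At 1.5-fold, 2 components were lower on the first type, and 1 was lower and 1 higher on the second. Limma called 10 genes under loess normalization and 7 under the higher floor (60th percentile), and Dsc1 was not among them. Without the array type as a block (no replicate block) limma called 0 genes and the adjusted p of Dsc1 was 1.00, since level differences between probe sets then enter the residual. Array numbers were given in accession order and pair nothing. Spike-in scaling changed the share of 2-fold calls that were higher from 37.7% to 96.6% on the first type and from 44.1% to 95.9% on the second. The floor at the 20th percentile gave 261 higher and 462 lower genes on the first type in place of 69 and 114, and 414 and 488 on the second in place of 126 and 160. At the 60th percentile the counts were 27 and 31, and 29 and 41. Signals near the floor limit Dsc2 and Dsg2 on the first type, and neither had a ratio under the higher floor.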

Other observations

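Probe sets of the same gene gave unlike ratios for several junction genes, named after their values were seen. The fainter Dsg1a probe set was past 2-fold (-1.28) and the brighter was not (-0.59). For Lamb3 the probe set reading 438 in knockout against 64.6 in wildtype gave at least 2.50 on the log2 scale, while the brighter one gave 1.20. The brighter Cdh3 (P-cadherin) probe set stood at 0.33 and the fainter at 0.89, and those of Adam10 at 0.15 and -0.70. Spink5, whose product inhibits the kallikreins, read 766 in knockout against 1298 in wildtype on second-type arrays, a log2 ratio of -0.76.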
